A study of Mus musculus with 6 samples.

Results

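Has1/Scara5/Bglap2 fibroblasts, here HSB fibroblasts, are stromal cells of the mouse bladder mucosa in which the summed unique molecular identifiers (UMIs) of Has1, Scara5 and Bglap2 outnumbered 3 other marker sums. Cells with over 500 detected genes entered the search when Col1a1, Col1a2, Col3a1 and Dcn together had at least 10 UMIs and more UMIs than 6 urothelial keratins or the muscle genes Myh11, Des and Cnn1. Cells with a UMI of Ptprc or Pecam1, or with more than 2 UMIs of Top2a, Mki67, Birc5 and Ube2c, were left out. The sum of Has1, Scara5 and Bglap2 then had to reach 2 UMIs and to be strictly larger than Pi16 + Mfap5, Inmt + Sct + Ass1 and Car3 + Cxcl14 + Rbp4. This rule kept 1152 of 11421 stromal cells, out of 55399 cells with over 500 genes, and the same comparison gave 3498 Pi16/Mfap5 fibroblasts, 400 Inmt/Sct/Ass1 fibroblasts and 5705 Car3/Cxcl14/Rbp4 stromal cells. The members were thus chosen by the measured UMIs of the marker genes in the sums, and the levels of those genes are a description without a test.

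The mucosa was peeled from the bladders of 8-week-old wild-type C57BL mice, dissociated with collagenase IV and DNase I, and profiled with a droplet-based 3′ assay, 2 libraries per condition. Healthy mice were uninjured, acutely injured mice were collected 48 h after cyclophosphamide (CPP), a drug whose urinary metabolites damage the bladder lining, and chronically injured mice received 4 rounds of CPP and were collected on day 11. Per the study's methods the chronic bladders were also taken 48 h after the last injection, with a lower dose per injection, so dose, number of rounds and time since the first injection cannot be told apart. The methods give males and females in each group, whereas the Y-linked Ddx3y had a UMI in 12.2% to 35.9% of the HSB fibroblasts of each library and Xist, the RNA of the inactive X, had none in the 5 libraries that list it. No source ties a cell to an animal, so the library is the replicate throughout, and p-values measure the spread between libraries.

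As background, HAS1 is a plasma membrane enzyme that makes hyaluronan, the large glycosaminoglycan of loose connective tissue. SCARA5 is a scavenger receptor that can take up ferritin and is found on many fibroblasts. Bglap2 encodes osteocalcin, a small secreted protein best known from osteoblasts, whose glutamate residues are carboxylated with the help of vitamin K. CLEC3B (tetranectin) is a secreted plasminogen-binding lectin, and TIMP3 is a matrix-bound inhibitor of metalloproteases. Pi16 marks fibroblasts that lie around vessels and in the outer connective tissue of many organs.

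The 6 tables held 54604109 to 111985678 UMIs each. HSB fibroblasts numbered 39 and 136 in the healthy, 143 and 311 in the acute and 499 and 24 in the chronic libraries (replicates 1 and 2 in this order, as throughout), with 75791 to 1077702 UMIs in sum. Their median depth per cell ran from 2555 to 4744 UMIs. Between 36 and 229 cell barcodes were shared by any pair of libraries. In healthy 1, acute 1 and chronic 2 no cell had under 3386 UMIs, while the lowest cells of the other libraries had 2673, 564 and 1991, and each side of this depth split held 1 library of every condition. The doublet caller marked 0% to 10.3% of the HSB fibroblasts of a library.

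The genes of the sum were high in HSB fibroblasts in every library, in UMIs scaled to CPM, the usual normalization of counts to a common library total, over the summed cells. Bglap2 was at 1328 and 2293 CPM in the healthy, 2067 and 3252 in the acute and 4392 and 1887 in the chronic libraries. In the Pi16/Mfap5 fibroblasts it was at 150 and 306, 369 and 563, and 710 and 642 CPM, and in Car3/Cxcl14/Rbp4 cells at 4.11 to 126 CPM. Urothelial cells, which should lack the gene, had 5.23 to 43.2 CPM, and 2.62% to 15.9% of them carried a UMI, with a median depth of 6817 to 13484 UMIs in the urothelial cells of a library. The level of Bglap2 in HSB fibroblasts lay above that in the other classes in each library, as the rule favours.

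Has1 was at 588 and 500, 535 and 162, and 430 and 356 CPM in the HSB fibroblasts, with acute 2 the lowest. Scara5 was at 1389 and 1176 CPM in the healthy libraries, 496 and 906 in the acute and 640 and 369 in the chronic libraries. Both healthy libraries had the highest Scara5 levels and the lowest and the fourth lowest Bglap2 levels. Pi16/Mfap5 fibroblasts also carried Scara5, at 245 to 771 CPM, whereas Has1 was at 34.4 to 257 CPM there.

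Clec3b and Timp3 were named as markers of these cells without being part of the sum. Clec3b was at 1107 and 1350, 1793 and 2368, and 2011 and 1029 CPM in HSB fibroblasts. In the Pi16/Mfap5 fibroblasts it was at 2215 and 1861, 2706 and 2929, and 2887 and 1009 CPM, which is higher in 5 of 6 libraries, the exception being chronic 2 with 9 such cells. Timp3 was at 3298 and 1586, 1668 and 770, and 1370 and 712 CPM in HSB fibroblasts against 1684 and 1676, 1449 and 793, and 1477 and 1223 CPM in Pi16/Mfap5 fibroblasts, and its order between the classes changed from library to library. Neither gene set the HSB fibroblasts apart from the Pi16/Mfap5 fibroblasts, whereas both lay well above Car3/Cxcl14/Rbp4 cells (121 ± 91.6 CPM for Clec3b and 325 ± 164 for Timp3, SD, n = 6).

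Genes of fibroblasts were found in HSB fibroblasts. Cd34, a surface sialomucin of adventitial fibroblasts, was at 264 to 701 CPM there, against 16.1 to 119 CPM in Car3/Cxcl14/Rbp4 cells. Pdgfra, a receptor common to fibroblasts, was at 84.4 to 183 CPM in HSB fibroblasts and at 65.3 to 196 CPM in Car3/Cxcl14/Rbp4 cells. Pdgfra thus did not set these 2 classes apart. Pi16 was present too, at 396 to 1753 CPM, and 62.5% to 97.4% of the HSB fibroblasts of a library had a UMI of it. HSB fibroblasts are thus cells in which 1 sum exceeded another, and not cells free of Pi16.

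**Figure D1:**
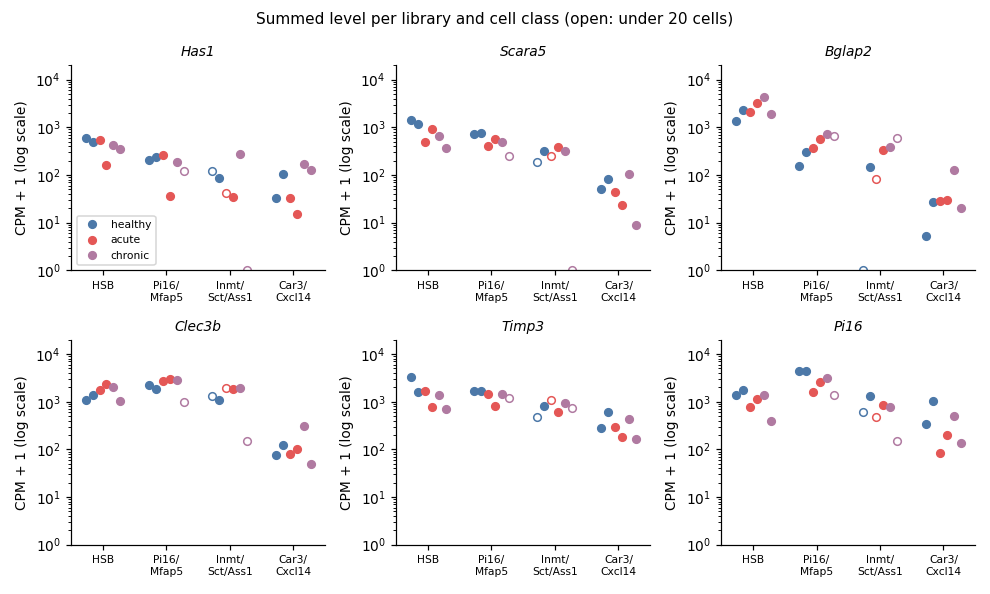
Summed level (CPM + 1, log scale) of 6 genes in the HSB fibroblasts, Pi16/Mfap5 fibroblasts, Inmt/Sct/Ass1 fibroblasts and Car3/Cxcl14/Rbp4 cells, with 1 point per library, coloured by condition, and open points for sums of under 20 cells. Bglap2 in HSB fibroblasts lies between 1328 and 4392 CPM, and Clec3b is higher in the Pi16/Mfap5 fibroblasts in 5 of 6 libraries.

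The osteocalcin genes lie side by side on the minus strand of chromosome 3 (GRCm38): Bglap at chr3:88383501-88384464, Bglap2 at chr3:88377736-88378699 and Bglap3 at chr3:88368616-88372743. The last 120 coding bases of each are shown because a 3′ assay reads the end of the transcript and because the copies decide how far a UMI can be given to 1 gene. Capitals mark the 7 positions at which the 3 sequences are not all the same.
Bglap2: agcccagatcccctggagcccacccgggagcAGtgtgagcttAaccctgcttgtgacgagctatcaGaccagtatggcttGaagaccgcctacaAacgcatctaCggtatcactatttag
Bglap: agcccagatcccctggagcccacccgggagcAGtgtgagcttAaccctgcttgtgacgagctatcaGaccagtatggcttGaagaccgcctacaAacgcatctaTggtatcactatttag
Bglap3: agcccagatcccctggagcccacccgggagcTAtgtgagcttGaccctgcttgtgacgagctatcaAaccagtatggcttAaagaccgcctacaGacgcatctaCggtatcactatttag
Over this stretch Bglap2 and Bglap differ at 1 base and Bglap2 and Bglap3 at 6. Their annotated 3′ untranslated regions are the same at 134 of 134 positions for Bglap2 and Bglap, and at 132 of 134 for Bglap2 and Bglap3. Reads from Bglap2 and Bglap can therefore hardly be told apart, and the split between these genes is uncertain.

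Bglap was at 68.7 and 46.5, 237 and 240, and 248 and 145 CPM in HSB fibroblasts, and lay at 0 to 69.0 CPM in Pi16/Mfap5 fibroblasts. Bglap3 was at 68.7 and 133, 72.0 and 239, and 95.6 and 172 CPM, with healthy and injured libraries overlapping. The healthy and the injured libraries did not overlap for Bglap. Since its 3′ UTR has the same 134 bases as that of Bglap2, a gene that chose the cells, and Bglap2-led cells took a larger share after injury, the 2 cannot be told apart here and no change of Bglap is read from this. Osteoblast genes were low. Alpl, an osteoblast phosphatase, was at 15.7 to 119 CPM, Runx2, the factor that directs bone formation, at 0 to 11.4 CPM, and the 11 listed osteoblast and cartilage markers held 34.3 to 158 CPM in sum over the 3 of them present in all tables.

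Not every HSB fibroblast expressed all genes of the sum. Of the 1152 cells, 229 had UMIs of 1 of the genes, 630 of 2 and 293 of all 3. Bglap2 had the most UMIs in 777 cells, Scara5 in 178 and Has1 in 87, and 110 cells were tied. The leading gene changed with the library: Bglap2 led in 23.1% and 42.6% of the cells in healthy libraries, 59.4% and 68.2% in acute and 79.4% and 70.8% in chronic libraries. Scara5 led in 56.4% and 33.8%, 10.5% and 18.6%, and 7.01% and 8.33%. Scara5 led in most cells of healthy 1, Bglap2-led cells were the largest group in healthy 2, and Bglap2 led in most cells of every injured library. Every comparison of conditions below is between sets of cells that differ in this way, and the part of that shift in each result was not tested apart from a repeat in which Bglap2 was taken out of the sum.

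The limits of the class are soft. Just inside, 65 cells had a sum of 2 UMIs and 238 led by 1 UMI, and just outside, 275 cells were tied with another sum and 249 were beaten by 1 UMI. A further 2860 cells had at least 2 UMIs of the 3 genes but a larger other sum, and 666 stromal cells entered no class.

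**Figure D2:**
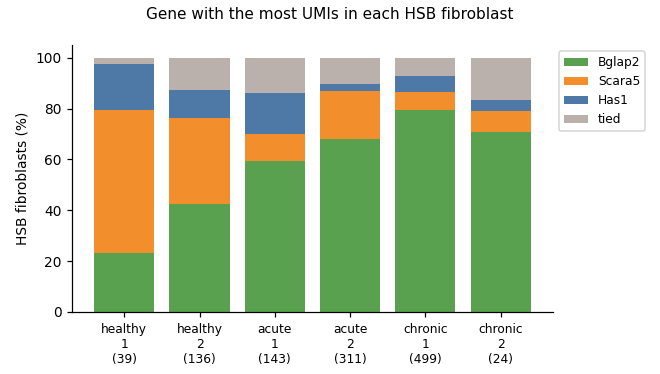
Percentage of the HSB fibroblasts of each library (number of cells in brackets) in which Bglap2, Scara5 or Has1 had the most UMIs, or in which these were tied. Bglap2-led cells make up 23.1% and 42.6% of the healthy libraries and 59.4% to 79.4% of the injured libraries.

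The first question over conditions was whether HSB fibroblasts took a different share of the stroma after injury. They were 1.94% and 7.25% of the 4 classes in the healthy libraries, 29.2% and 6.27% in the acute and 39.1% and 16.9% in the chronic libraries. The chronic libraries lay above both healthy libraries, and acute 2 lay between the healthy libraries. The 95% Wilson intervals, which cover counting error only, were 5.63% to 6.98% for acute 2 and 11.6% to 23.9% for chronic 2. The mean share was 23.4 percentage points higher in chronic than in healthy libraries (28.0 ± 15.7% against 4.59 ± 3.75%, SD, n = 2; exact two-sided permutation test, p = 0.333). This is the smallest p that 2 libraries against 2 can give. In the acute libraries it was 17.8 ± 16.2%, and the difference of 13.2 points was within the spread between libraries (n = 2, exact two-sided permutation test, p = 0.667). With at most 2 keratin UMIs per cell the acute libraries (31.6% and 15.1%) lay above the healthy libraries (1.61% and 5.45%), a difference of 19.8 points (n = 2, exact two-sided permutation test, p = 0.333).

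The share depended on the denominator, and acute 2 held 3841 of the Car3/Cxcl14/Rbp4 cells. Among the 3 fibroblast classes alone, HSB fibroblasts were 4.33% and 9.17% in the healthy, 44.1% and 27.8% in the acute and 42.0% and 68.6% in the chronic libraries. Both injured groups then lay above both healthy libraries, by 29.2 points in the acute and 48.5 points in the chronic libraries (n = 2, exact two-sided permutation test, p = 0.333 for both). On the deeper side of the depth split (healthy 1, acute 1 and chronic 2) the share of the 4 classes was 27.3 and 15.0 points higher after acute and chronic injury, and on the other side it was 0.98 points lower and 31.9 points higher. The share of the 3 fibroblast classes was 39.8 and 64.2 points higher on the deeper side and 18.6 and 32.8 points higher on the other side. All injured libraries lay above both healthy libraries in this share, so its direction on each side is no check on depth. The same holds for the chronic direction in the share of the 4 classes. With Bglap2 taken out of the sum the share of the 4 classes was 4.87 points higher in acute (exact two-sided permutation test, p = 0.667, n = 2) and 5.39 points higher in chronic libraries (p = 0.333), and acute 2 (1.61%) lay between the healthy libraries (1.24% and 2.97%). The differences among the 3 fibroblast classes were then 10.0 and 20.6 points (exact two-sided permutation test, p = 0.333 for both, n = 2). These shares were 2.77% and 3.75% in the healthy, 19.3% and 7.30% in the acute and 9.60% and 38.1% in the chronic libraries. The value of chronic 2 rested on 8 of 21 cells. As shares of a total, these values cannot tell more HSB fibroblasts from fewer other cells. Nor can they tell either from cells that changed class, since a lower Pi16 + Mfap5 sum also moves a cell into HSB fibroblasts. In Pi16/Mfap5 fibroblasts Pi16 was at 4369 and 4374 CPM in the healthy and 1579 and 2564 in the acute libraries. In the chronic libraries it was at 3105 and 1376 CPM, the latter from 9 cells. Mfap5 overlapped between the conditions there. The part of this in the shares was not tested. Dissociation and recovery of cells per library were not measured.

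**Figure D3:**
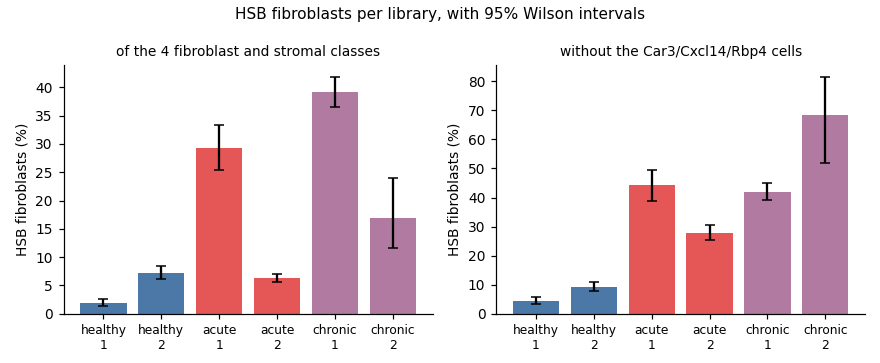
HSB fibroblasts as a percentage of all 4 classes (left) and of the 3 fibroblast classes without Car3/Cxcl14/Rbp4 cells (right), 1 bar per library with its 95% Wilson interval. On the left acute 2 (6.27%) lies between the healthy libraries, and on the right all injured libraries (27.8% to 68.6%) lie above the healthy libraries.

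Set against the Pi16/Mfap5 fibroblasts, HSB fibroblasts differed in few genes. Over 3504 genes of at least 50 CPM and the 5 libraries with 20 cells of both, 4 genes (0.114%) were at least 2-fold higher in every library and 1 gene (0.0285%) was 2-fold lower. The higher genes were Bglap2, Bglap3, Bglap and Has1, and the lower gene was Pi16. The rule contrasted these classes, so these values are descriptions. Ratios are of CPM plus 5.

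Next in order came Pde12, a phosphodiesterase, at 70.5 ± 31.1 against 26.7 ± 11.8 CPM (SD, n = 5), then Socs3, Gdf15 and Mdm2, each higher in 5 of 5 libraries. Socs3, a feedback inhibitor of cytokine signalling, was at 919 ± 491 against 560 ± 341 CPM. Mdm2, which targets p53 for degradation, was at 210 ± 210 against 125 ± 112 CPM, and Gdf15, a stress-induced cytokine, at 62.0 ± 48.8 against 20.9 ± 20.6 CPM. Of the listed p53 targets 7 of 12 were higher in all 5 libraries and none lower, and of the immediate-early and dissociation stress genes 15 of 32 were higher and 2 lower, beside 9.36% and 10.3% of all genes. Lower than in Pi16/Mfap5 fibroblasts in 5 of 5 libraries were Mfap5, a gene of the sum that chose those cells (585 ± 126 against 1295 ± 183 CPM), Pcolce2, an enhancer of collagen processing, at 67.7 ± 43.5 against 164 ± 68.5 CPM, and Loxl1, a cross-linking enzyme of elastin, with a mean log2 ratio of -0.86. Serpinf1 (86.5 ± 22.4 against 185 ± 76.3 CPM), Dpep1 (mean log2 ratio -1.30), Plpp1 (48.6 ± 5.01 against 105 ± 13.5 CPM) and the complement gene C3 (24.3 ± 19.8 against 55.9 ± 18.5) were lower as well. Of the proteoglycans and matrix glycoproteins 16 of 37 were lower in every library and none higher, beside 10.3% of all genes lower. Mfap5, whose direction the rule favoured, is among these 16. Of the collagens 7 of 16 were lower.

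Against the Inmt/Sct/Ass1 fibroblasts 3 libraries could be compared, over 3527 genes, of which 7 (0.198%) were at least 2-fold higher and 4 (0.113%) 2-fold lower in all 3. Tppp3, a tubulin-binding protein seen in sheath and fascia fibroblasts, was at 346 ± 39.5 against 98.1 ± 12.6 CPM (SD, n = 3). Prss23, a secreted serine protease, was at 201 ± 98.3 against 78.5 ± 53.4 CPM, and Stmn2, a regulator of microtubules, at 407 ± 178 against 166 ± 144 CPM. 1700112E06Rik was at 67.4 ± 4.87 against 26.3 ± 3.90 CPM. For Inmt (372 ± 72.4 against 2879 ± 111 CPM) and Sct (28.8 ± 24.1 against 92.1 ± 60.4), genes of the sum that chose the other cells, the rule itself fixed the direction. Lower in HSB fibroblasts were also the chemokine Cxcl12 (128 ± 18.9 against 320 ± 94.1 CPM), Rbp4 (33.1 ± 23.1 against 83.2 ± 38.7) and Spon2 (180 ± 130 against 426 ± 187). Cd74 and H2-Eb1, both of antigen presentation, and the macrophage lysozyme Lyz2 were lower too, at 67.1 ± 36.2 against 555 ± 579, 22.9 ± 7.47 against 144 ± 97.6 and 17.0 ± 12.1 against 55.7 ± 4.06 CPM.

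Against the Car3/Cxcl14/Rbp4 cells, 56 of 3691 genes (1.52%) were at least 2-fold higher and 74 (2.00%) at least 2-fold lower in all 6 libraries. HSB fibroblasts had more Dmkn (544 ± 219 against 30.1 ± 21.3 CPM, SD, n = 6), Stmn2 (464 ± 157 against 14.3 ± 12.3), Tppp3 (309 ± 78.5 against 19.8 ± 11.4) and Abi3bp, a matrix protein (308 ± 115 against 25.3 ± 17.9). They had little of the contractile genes. Acta2, smooth muscle actin, was at 31.8 ± 11.3 against 1032 ± 500 CPM, Tagln at 25.6 ± 20.9 against 898 ± 480 CPM and Myl9 at 20.6 ± 13.4 against 726 ± 256 CPM, and 11 of 11 contractile genes compared were lower in every library, beside 11.7% of all genes. The Wnt antagonist Dkk2 (12.5 ± 5.51 against 469 ± 99.9 CPM), the vasopressin receptor gene Avpr1a (mean log2 ratio -4.09) and 12 of 16 collagens were lower as well. For Car3 (mean log2 ratio -7.13), Cxcl14 (173 ± 92.6 against 5489 ± 1637) and Rbp4 (25.3 ± 17.2 against 989 ± 497) the rule itself fixed the direction.

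The second question was which genes of the HSB fibroblasts changed with injury. Counts were summed per library and tested with edgeR's quasi-likelihood test, adjusted by Benjamini-Hochberg over 6571 genes, and CPM values from here on are scaled by TMM factors. After acute injury 3 genes rose (0.0457%) and none fell, and DESeq2 called Gpx3, Ifit1 and Ifit3 higher. After chronic injury 2 genes rose (0.0304%) and none fell, and DESeq2 called 6 higher (Gpx3, Ifit1, Cdkn1a, Sfrp2, Trp53inp1 and Itm2a) and Atf5 lower. Between acute and chronic injury no gene passed with either tool. At an unadjusted p under 0.05 there were 391 (5.95%), 300 (4.57%) and 226 genes (3.44%) in these comparisons.

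Gpx3, a secreted glutathione peroxidase that removes peroxides outside the cell, rose after both injuries. It was at 103 and 39.0 CPM in the healthy, 792 and 527 in the acute and 715 and 614 in the chronic libraries, and the injured libraries all lay above the healthy libraries. The log2 fold change was 3.34 ± 0.46 (SE) after acute injury (adjusted p = 0.0339) and 3.36 ± 0.47 after chronic injury (adjusted p = 0.0175). Without healthy 2, the larger healthy set with 136 cells, the log2 fold change was 2.72 (adjusted p = 0.249) in acute and 2.69 (adjusted p = 0.2496) in chronic injury, and without chronic 1 the chronic change was 3.21 (adjusted p = 0.0966). With Bglap2 out of the sum it was 2.37 in acute injury (adjusted p = 0.150). In Pi16/Mfap5 fibroblasts Gpx3 was at 126 and 47.6 CPM in the healthy, 522 and 317 in the acute and 530 in the 1 chronic library with 20 such cells, without TMM factors, and in their own fit the log2 fold change was 2.29 ± 0.48 (SE) in acute injury (adjusted p = 0.514). The acute libraries differed in the summed level of immediate-early and dissociation stress genes, at 46910 CPM in acute 1 and 18456 CPM in acute 2 against 41823 and 36813 CPM in the healthy and 45033 and 52724 CPM in the chronic libraries before TMM scaling, and its part in the acute results was not tested.

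Ltc4s, the synthase of leukotriene C4, a lipid mediator of inflammation, rose after acute injury. It was at 0 and 6.50 CPM in the healthy, 103 and 114 in the acute and 75.5 and 93.5 in the chronic libraries. Only 2 of its UMIs came from healthy cells against 121 from acute cells, a ratio of 23.1 (95% exact counting interval 6.27 to 193). Both healthy UMIs came from healthy 2, and without that library the level in acute cells was at least 4.46-fold higher than 3 counts in healthy cells would give. The adjusted p was 0.0341 in acute and 0.116 in chronic injury, DESeq2 gave 0.0522 in acute injury, and with called doublets left out it was 0.0557. Pi16/Mfap5 fibroblasts had at most 2.93 CPM of Ltc4s in the healthy and 88.3 and 45.9 CPM in the acute libraries without TMM factors, and Ltc4s rose there too (log2 fold change 4.58 ± 0.43, adjusted p = 0.0127).

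Gm26870, a long noncoding RNA gene at chr9:3000282-3038313 on the minus strand (GRCm38), rose after chronic injury (adjusted p = 0.0175). It had no UMI in either healthy library, 47.2 and 34.5 CPM in the acute and 221 and 93.5 CPM in the chronic libraries. Against 3 counts over both healthy libraries, its level was at least 30.1-fold higher in chronic and at least 5.61-fold higher in acute cells. The chronic bound was 13.95-fold without chronic 1, which held 223 of the 230 chronic UMIs, and without healthy 2 the bounds were 8.71-fold and 1.62-fold. The acute difference did not pass (adjusted p = 0.127), and without chronic 1 neither did the chronic one (adjusted p = 0.167). In Pi16/Mfap5 fibroblasts Gm26870 was at 0.624 and 0.326 CPM in the healthy libraries and at 141 CPM in chronic 1, the 1 chronic library with at least 20 such cells (without TMM factors). The adjusted p of 0.000366 takes its spread from the other groups, since that library has no replicate.

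Ifit1, an interferon-induced protein that binds foreign RNA, rose after acute injury from 23.9 and 13.0 CPM to 148 and 447 CPM and was at 178 and 174 CPM after chronic injury. The log2 fold change was 4.14 ± 0.63 in acute (adjusted p = 0.0341) and 3.38 ± 0.65 in chronic injury (adjusted p = 0.126). Without healthy 2 the acute value was 3.68 (adjusted p = 0.286), and without chronic 1, which enters through the shared spread, the adjusted p was 0.0899. Every injured library lay above both healthy libraries for Ifit1. With Bglap2 out of the sum, Ltc4s (log2 fold change 4.01, adjusted p = 0.178) and Ifit1 (3.68, adjusted p = 0.868) did not pass in acute injury. Chronic 2 then had 8 HSB fibroblasts and was left out, so the chronic log2 fold change of 2.81 for Gpx3 rests on chronic 1 alone. No fold is given for Gm26870 in this setting, since it had no UMI in healthy cells. On each side of the depth split Gpx3, Ltc4s and Ifit1 were higher in the acute and in the chronic library than in the healthy library. This had to be so, since every injured library lay above both healthy libraries for these genes, and it is no check on depth.

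**Figure D4:**
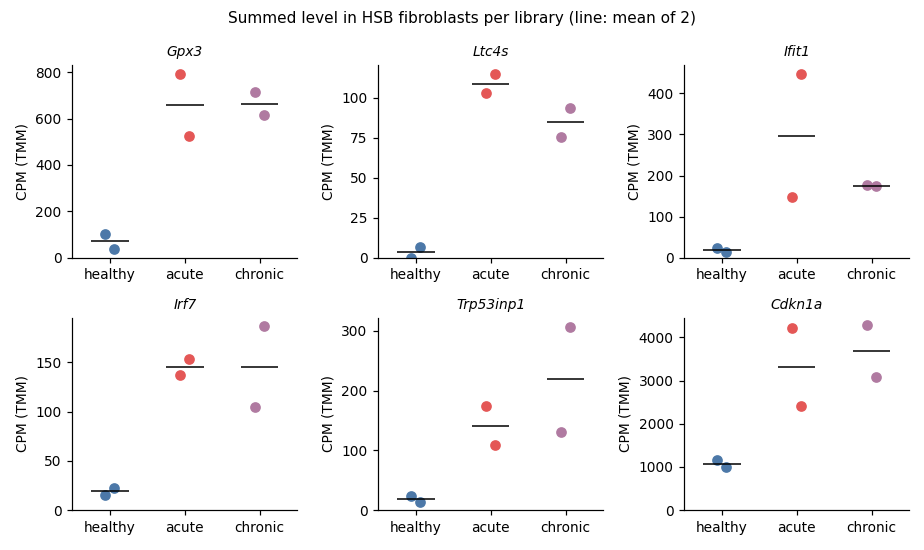
Summed level (CPM with TMM factors, linear axis from 0) of 6 genes in HSB fibroblasts, 1 point per library and a line at the mean of 2. Healthy libraries lie below all injured libraries for each gene, for instance 39.0 and 103 against 527 to 792 CPM for Gpx3.

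The rest of the genes named by the rule did not pass edgeR's adjusted test. They were picked by p among genes whose libraries did not overlap, so that lack of overlap is no result. In acute injury it held for 18.9% of all genes in each direction. In chronic injury it held for 15.5% of all genes in the higher and 17.7% in the lower direction. Ephx1, an epoxide hydrolase of xenobiotic metabolism, was at 31.8 and 19.5, 140 and 182, and 151 and 120 CPM (adjusted p = 0.0685 in acute, 0.126 in chronic injury). Irf7, a transcription factor of the interferon response, was at 15.9 and 22.8, 137 and 154, and 104 and 187 CPM (adjusted p = 0.0843 and 0.126). Atf5, a stress-responsive transcription factor, was at 342 and 163, 62.3 and 69.0, and 41.7 and 13.4 CPM (adjusted p = 0.255 and 0.116), and DESeq2 called it in chronic injury (adjusted p = 0.0235). Fxyd6, a regulator of the sodium pump, was at 143 and 114, 25.8 and 43.9, and 27.8 and 13.4 CPM, and Ltbp4, which ties latent TGF-beta to elastic fibres, at 739 and 608, 240 and 315, and 266 and 294 CPM. Rab15 and Ivl had log2 fold changes of -1.94 and -1.38 in acute injury (adjusted p = 0.255 and 0.268), and Neo1 and Nr2c2ap of -2.13 and -2.01 in chronic injury (adjusted p = 0.314 and 0.321). Ivl is a gene of stratified epithelia, and its change in acute injury was 0.34 when cells were held to 2 keratin UMIs, a setting in which healthy 1 with 21 cells was the 1 healthy library left.

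The interferon response genes, which cells transcribe when interferons bind their receptors, mostly had injured libraries above both healthy libraries. Of 32 listed genes 29 were tested, and in edgeR's test 1 of them, Ifit1, passed in acute injury and none in chronic injury, while DESeq2 called Ifit1 and Ifit3 in acute and Ifit1 in chronic injury. In acute injury 20 of 29 had an unadjusted p under 0.05, all higher, beside 214 of 6571 genes higher at that p. In 21 the acute libraries lay above both healthy libraries, against 18.9% of all genes. The median log2 fold change of the list was 1.76 in acute and 1.52 in chronic injury, beside -0.01 for all genes in both. In chronic injury 14 were higher at an unadjusted p under 0.05, beside 183 of 6571 genes. In 20 the chronic libraries lay above both healthy libraries, against 15.5% of all genes. Isg15, a ubiquitin-like modifier, was at 111 and 19.5, 307 and 896, and 147 and 280 CPM. Ifit3, with 2 UMIs in healthy cells, was at 7.95 and 3.25, 58.0 and 381, and 80.4 and 93.5 CPM, and its pooled acute ratio of 51.6 (95% exact counting interval 14.2 to 429) was 12.6 (3.16 to 109) without acute 2, 78.8 without acute 1 and 29.8 without healthy 2. Most of the acute UMIs of Ifit3 thus came from 1 library. Ifi47, an interferon-induced GTPase, was at 0 in both healthy, 12.9 and 40.7 in the acute and 46.7 and 26.7 CPM in the chronic libraries. Igtp, with 1 UMI in healthy cells, was at 0 and 3.25, 8.59 and 34.5, and 55.6 and 26.7 CPM. For Ifi47 and Igtp the injured libraries lay above both healthy libraries, and no fold is given for so few UMIs. Isg15, Ifit3, Ifi47 and Igtp did not pass edgeR's adjusted test, and DESeq2 called Ifit3 in acute injury (adjusted p = 0.0150). For the class I genes B2m (1304 and 1154, 1149 and 1785, and 1403 and 1335 CPM) and H2-K1 (382 and 231, 292 and 277, and 371 and 467 CPM) the acute libraries overlapped the healthy libraries.

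The promoter of Ifit1, the 1 list member past edgeR's test, is shown with a motif that interferon factors are known to bind at such genes. It is the 250 bases before the annotated start, chr19:34640639-34640888 on the plus strand of GRCm38.p6 (RefSeq), and capitals mark matches of the interferon-stimulated response element core, GAAA, then 2 bases of any kind, then GAAA, searched on both strands and here read on the minus strand.
Ifit1 promoter: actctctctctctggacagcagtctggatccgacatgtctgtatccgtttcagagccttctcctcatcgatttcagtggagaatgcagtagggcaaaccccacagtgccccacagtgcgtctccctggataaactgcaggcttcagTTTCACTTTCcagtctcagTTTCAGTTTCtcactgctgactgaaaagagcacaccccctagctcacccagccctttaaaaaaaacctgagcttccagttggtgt
In the 250 bases before each start, the motif was found in 978 of 32851 promoters (2.98%). Promoters of genes tested in HSB fibroblasts had it in 130 of 5089 cases (2.55%). It was also found in 10 of the 23 interferon response genes with an annotated promoter. For both gene sets the first listed promoter of each gene was used, whereas the count over all promoters took every one listed. Isg15 had 3 matches and Ifit3 had 2, while Irf7 and Ifi47 had none. A match is a stretch of letters and not a measured binding site.

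None of the 20 tested p53 target genes passed edgeR's test in either injury. In acute injury 9 of 20 tested genes had an unadjusted p under 0.05, all higher, and 13 of 20 had acute libraries above both healthy libraries, beside 18.9% of all genes (15.5% in chronic injury) and 214 of 6571 genes higher at an unadjusted p under 0.05 (183 in chronic injury). In chronic injury these counts were 7 and 11, and the median log2 fold changes were 1.20 and 0.77. Cdkn1a, the cell cycle inhibitor p21, was at 1153 and 992 CPM in the healthy, 4227 and 2404 in the acute and 4291 and 3084 in the chronic libraries (log2 fold change 1.63 and 1.79, adjusted p = 0.263 and 0.206). Trp53inp1 was at 23.9 and 13.0, 174 and 108, and 131 and 307 CPM (3.06 and 3.53, adjusted p = 0.112 and 0.116). DESeq2 called both genes in chronic injury. Cdkn1a was higher after injury in other classes too, given here without TMM factors. Pi16/Mfap5 fibroblasts had 520 and 442 CPM in the healthy, 2991 and 1561 in the acute libraries and 3429 CPM in chronic 1. Car3/Cxcl14/Rbp4 cells had 562 and 399, 1584 and 628, and 2668 and 2069 CPM. Ccng1, at 87.5 and 130, 361 and 284, and 293 and 334 CPM, and the apoptosis gene Bax, at 342 and 270, 917 and 929, and 544 and 561 CPM, were higher in all injured libraries. Mdm2 was at 103 and 58.5, 595 and 116, and 234 and 521 CPM (adjusted p = 0.836 in acute injury), and Eda2r at 15.9 and 9.76, 60.1 and 23.5, and 31.8 and 93.5 CPM. Ddit4l was at 0 and 6.50, 27.9 and 32.9, and 14.9 and 0 CPM. Gdf15, Plk2, Zmat3 and Perp overlapped between the conditions.

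The lists around the members of the sum had no gene past the adjusted test, and each list counts a gene of the sum that chose the cells (Has1, Scara5 or Bglap2) among its tested genes. Of 8 tested genes of hyaluronan synthesis, turnover and binding none had an unadjusted p under 0.05 in either injury, with median log2 fold changes of -0.01 and 0.00. Ugdh, which makes the precursor of hyaluronan, was at 733 and 441, 1008 and 358, and 873 and 1187 CPM before TMM scaling, and Tnfaip6, which links proteins to hyaluronan, at 68.7 and 9.31, 185 and 15.7, and 40.8 and 198 CPM. For Tnfaip6 the conditions overlapped, and for Ugdh the chronic libraries alone lay above both healthy libraries, at an unadjusted p of 0.0975 in edgeR's fit over all genes. Has2 reached at most 53.4 CPM and Has3 15.3 CPM before TMM scaling. No order with Has1 is read from this, since Has1 chose the cells.

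Of 7 tested genes of iron uptake, storage and export, Trf was lower in the injured libraries (167 and 150, 66.5 and 50.2, and 54.6 and 120 CPM, adjusted p = 0.571 and 0.999). Hmox1, which releases iron from haem, was at 63.6 and 16.3, 202 and 65.8, and 98.3 and 93.5 CPM (adjusted p = 0.679 in acute injury). The ferritin gene Fth1 stayed between 5699 and 9152 CPM. Of the 10 tested vitamin K dependent proteins and their enzymes, Gas6, a ligand of the TAM receptors, was at 215 and 143, 464 and 458, and 544 and 547 CPM (adjusted p = 0.294 and 0.175) and Pros1, its relative, at 87.5 and 52.0, 118 and 121, and 111 and 187 CPM. Mgp, an inhibitor of calcification, was at 2075 and 5772, 1973 and 4080, and 2024 and 1095 CPM, with overlap in acute injury and both chronic libraries below both healthy libraries (adjusted p = 0.999). The reductase gene Vkorc1 was at 282 to 395 CPM before TMM scaling.

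Of the lists for matrix, identity, signals, lipids and stress, only Gpx3, in the lipid list, passed edgeR's adjusted test, and DESeq2 also called Sfrp2, in the growth factor list, in chronic injury (adjusted p = 0.0158). For the 16 collagens the median log2 fold change was -0.35 in acute and -0.10 in chronic injury, and none had an injured group above both healthy libraries, while 6 in acute and 4 in chronic injury lay below both, beside 18.9% and 17.7% of all genes. Col1a1 was at 5255 and 2013, 2806 and 1722, and 2284 and 3645 CPM, and Col3a1 at 6424 and 3476, 6204 and 5061, and 3741 and 6355 CPM, each with overlap. Col6a3 was at 342 and 111, 64.4 and 72.1, and 31.8 and 107 CPM (unadjusted p = 0.0148 in acute and 0.00799 in chronic injury in edgeR's fit over all genes). The medians were 0.03 and -0.35 for 17 adventitial fibroblast genes, 0.27 and 0.04 for 9 contractile genes, 0.27 and 0.62 for 10 complement genes and 0.13 and 0.16 for 25 matrix proteases and inhibitors. Among the latter Timp1 was at 103 and 133, 429 and 201, and 268 and 294 CPM (adjusted p = 0.583 and 0.985). For 38 proteoglycans and matrix glycoproteins they were 0.18 and 0.11, for 26 growth factor ligands -0.10 and -0.13, for 15 chemokines and cytokines 0.25 and 0.02, for 27 positional transcription factors -0.08 and -0.30, for 20 lipid genes, which include Gpx3, -0.17 and -0.04, and for 34 immediate-early and dissociation stress genes -0.29 and 0.21. Before TMM scaling, the summed level of these stress genes lay above both healthy libraries in acute 1 (46910 CPM) and below both in acute 2 (18456 CPM).

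Markers of other cells were counted in the same sums, in CPM before TMM scaling. Of 14 macrophage and leukocyte markers in all tables, the summed level was 1908 and 105 CPM in the healthy, 144 and 185 in the acute and 232 and 2322 in the chronic libraries, and Ptprc was at 0 by the rule. The high libraries, healthy 1 and chronic 2, held the fewest HSB fibroblasts (39 and 24), and Cd74 gave 641 and 1108 CPM of their sums. The 21 urothelial markers were present at 8710 and 14494, 6234 and 7697, and 16725 and 11954 CPM. Of 19 tested, 5 were lower at an unadjusted p under 0.05 in acute injury and 10 had acute libraries below both healthy libraries, beside 177 of 6571 genes and 18.9% of all genes, with a median log2 fold change of -0.76 in acute and 0.22 in chronic injury. The part of these other cells' RNA in the results was not tested. A repeat with at most 2 keratin UMIs per cell left 18 HSB fibroblasts in healthy 2, under the minimum of 20, so it changed the limit and dropped healthy 2 together. It set both acute libraries against the 21 cells of healthy 1, and Gpx3 then had a log2 fold change of 2.39 (adjusted p = 0.910). Endothelial (53.5 to 87.2 CPM), mural (38.2 to 119 CPM) and Schwann or perineurial markers (32.9 to 132 CPM) were low beside these, with Cdh5 and Kdr at 0 and Pecam1 at 0 by the rule. Of the mesothelial markers Krt19, Upk3b and Nkain4 were in all tables, with 526 to 1264 CPM in sum. Krt19 also counts among the 21 urothelial markers, so this sum does not set mesothelial from urothelial RNA apart.

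The third question was whether injury acted on HSB fibroblasts as on the other classes, tested as an interaction with the library as a block. Against Car3/Cxcl14/Rbp4 cells, 6 of 8495 genes (0.0706%) differed in their acute change and 2 (0.0235%) in their chronic change. Gpx3 was at 98.6 and 37.2, 757 and 515, and 690 and 561 CPM in HSB fibroblasts in this fit and at 1263 and 701, 2450 and 1738, and 2229 and 1653 CPM in Car3/Cxcl14/Rbp4 cells. Its log2 change was 2.23 ± 0.30 (SE) larger in HSB fibroblasts in acute (adjusted p = 0.00101) and 2.32 ± 0.31 larger in chronic injury (adjusted p = 0.000892), and its level stayed below that of Car3/Cxcl14/Rbp4 cells in every library. Sfrp2, a secreted modulator of Wnt signalling, was at 121 and 62.1, 640 and 218, and 644 and 402 CPM in HSB fibroblasts. Pi16/Mfap5 fibroblasts had 213 and 96.1 CPM in the healthy, 594 and 165 in the acute and 669 CPM in chronic 1, without TMM factors. There too Sfrp2 was higher in acute 1 and chronic 1 than in either healthy library. Car3/Cxcl14/Rbp4 cells had 392 and 141, 273 and 157, and 364 and 177 CPM. Against these cells the log2 difference was 2.28 ± 0.34 in acute (adjusted p = 0.00225) and 2.40 ± 0.36 in chronic injury (adjusted p = 0.00311). Without chronic 1 the chronic difference for Sfrp2 did not pass (adjusted p = 0.120).

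Prss23, Cops6 (a subunit of the COP9 signalosome), Gpnmb and Eln, the gene of elastin, were the other genes that differed in acute injury. Prss23 was at 53.1 and 143 CPM in the healthy and 133 and 156 in the acute HSB fibroblasts, while Car3/Cxcl14/Rbp4 cells had 25.5 and 57.6 and then 3.05 and 12.7 CPM. Cops6 was at 68.3 and 74.5 and then 310 and 265 CPM, against 154 and 191 and then 233 and 167 CPM. Gpnmb went the other way, with 83.4 and 65.2 and then 12.3 and 39.8 CPM in HSB fibroblasts, against 82.0 and 50.8 and then 107 and 184 CPM. Whether the acute and chronic differences of these genes differ from each other was not tested.

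Against the Pi16/Mfap5 fibroblasts, 2 of 10095 genes (0.0198%) differed in acute and 2 in chronic injury, with 1 chronic library that was assumed to vary like the others. In healthy HSB fibroblasts, with 131003 and 322276 UMIs in sum, the level of Eln rested on few UMIs. Eln was at 14.3 and 36.8 CPM in healthy and 104 and 49.3 CPM in acute HSB fibroblasts. In Pi16/Mfap5 fibroblasts Eln was at 166 and 151 and then 99.4 and 42.0 CPM. Its log2 change was 2.52 ± 0.40 larger in HSB fibroblasts (adjusted p = 0.0101), and without acute 2 this did not pass (adjusted p = 0.415). Ly6d, a urothelial marker, had a change that was 1.06 ± 0.18 smaller on the log2 scale (log2 difference -1.06, adjusted p = 0.0198), beside the urothelial sums given above. Gpx3, Ifit1 and Irf7 did not differ past the threshold between these classes in acute injury (log2 differences 0.98 ± 0.28, 0.65 ± 0.52 and 0.52 ± 0.57, adjusted p = 0.390, 0.896 and 0.939), which does not show that they changed alike.

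**Figure D5:**
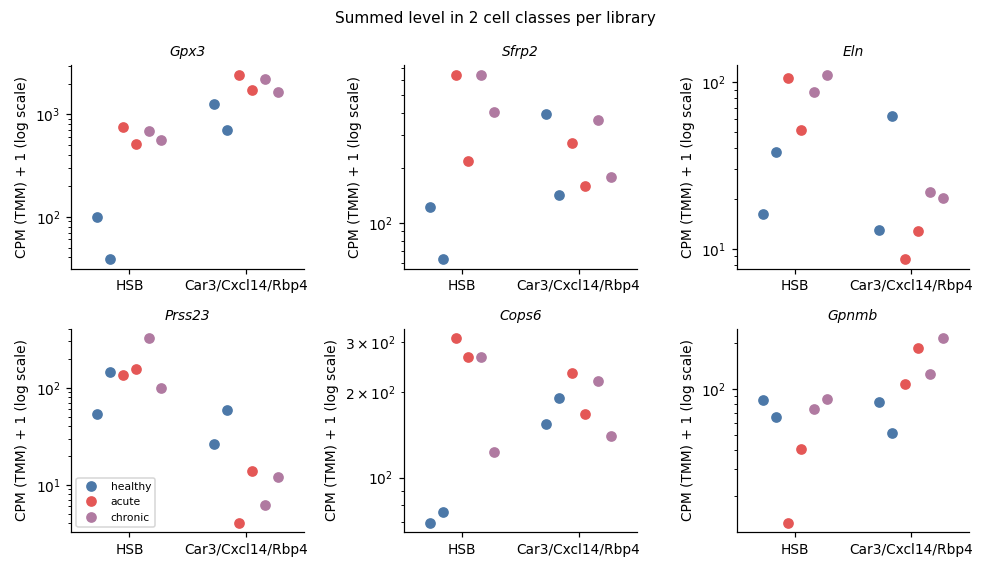
Summed level (CPM with TMM factors + 1, log scale, axes not from 0) of 6 genes in HSB fibroblasts and Car3/Cxcl14/Rbp4 cells, 1 point per library coloured by condition. Gpx3 and Sfrp2 lie higher in injured than in healthy HSB fibroblasts (for Gpx3 37.2 and 98.6 against 515 to 757 CPM) and shift less in Car3/Cxcl14/Rbp4 cells.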

How the data were processed

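Single-cell RNA-seq of 6 bladder mucosa libraries was analysed. Per the labels, the authors aligned reads to mm10 and counted UMIs with Cell Ranger, and the deposited tables hold raw UMI counts per gene and cell. The table of healthy 1 ends within its last line, which was dropped, and healthy 1 and acute 1 list fewer genes, so 14338 genes present in all tables, without mitochondrial and ribosomal protein genes, were used. Cells with over 500 genes were classed as stated above. The cells with the highest Scrublet scores (scanpy 1.11.5), in a preset number per library, were marked as doublets. They were kept, and leaving them out was an alternative. The cell rule, the members and the 24 gene lists were chosen with earlier results of these data known.

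UMIs were summed per library and class (at least 20 cells) and tested with edgeR 4.0.16 in R 4.3.3 (TMM factors, filterByExpr, robust quasi-likelihood test, Benjamini-Hochberg adjusted p below 0.05). DESeq2 1.42.0 was an alternative. Changes between classes were tested as interactions with the library as a block. Class comparisons are ratios of CPM plus 5 per library, over genes of at least 50 CPM in a class, without a test. Shares were compared with an exact permutation test (scipy 1.17.1). Fits were tested on simulated counts. Named were the genes of the sums with Clec3b and Timp3, and those past the test or next in order of p in each direction. Genes taken by order of p came from those whose libraries did not overlap. Also named were the 8 highest and lowest against each class, list members with the largest changes, and up to 5 interaction genes per contrast. Further list members, the marker genes of other cells and the genes tested by DESeq2 alone were named after their values were seen.

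Gene positions are from the GRCm38 annotation and sequences from its genome and RefSeq promoters. For the tested genes and the interferon response genes, the first listed promoter of each gene was searched. Counting intervals cover counting error only.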

Additional observations from a re-analysis of the deposited data

Results flagged for a closer look

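Genes whose injury change differed between HSB fibroblasts and another class by the interaction test were set apart for a closer look, and their values are differences of log2 fold changes, HSB fibroblasts minus the other class. Against the Car3/Cxcl14/Rbp4 cells these were, in acute injury, Gpx3 (2.23), Sfrp2 (2.28), Prss23 (2.59), Cops6 (1.84), Eln (3.09, adjusted p = 0.0199) and Gpnmb (-2.67), and in chronic injury Gpx3 (2.32) and Sfrp2 (2.40). Gpnmb missed the threshold without healthy 2 (adjusted p = 0.0510), as did Eln (0.679) and Cops6 (0.129), and Cops6 did so without acute 2 (0.0713).

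Against the Pi16/Mfap5 fibroblasts these were, in acute injury, Eln (2.52) and Ly6d (-1.06). Ly6d did not pass without acute 1 (adjusted p = 0.852), acute 2 (0.415) or chronic 1 (0.154), and Eln did not without acute 2 (0.415) or chronic 1 (0.0973). In chronic injury, with chronic 1 as the 1 chronic library, they were the haemoglobin genes Hba-a2 (8.00, adjusted p = 1.82e-09) and Hba-a1 (6.21, adjusted p = 8.68e-06). Of the 218 haemoglobin UMIs in the HSB fibroblasts of chronic 1, 198 were in 1 cell, and without healthy 2 neither gene passed (adjusted p = 0.0850 and 0.293).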

How the results depend on the processing

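Numbers of called genes depended on the settings. For acute against healthy, chronic against healthy and acute against chronic HSB fibroblasts, 3, 2 and 0 genes passed, against 40, 31 and 6 with no filter on low counts, and 1, 5 and 4 with Bglap2 out of the sum (chosen after seeing the data, and without chronic 2, which then had under 20 cells). DESeq2 called 7 in chronic injury, and leaving out doublets left 1. With at most 2 keratin UMIs per cell, which also dropped healthy 2 (18 cells) and left 1 healthy library, 1 gene passed in acute injury, the chronic comparisons were not run for want of cells, and the acute log2 fold change of Ivl turned to 0.34. Leaving out 1 library gave 1 to 103 genes in acute injury, 0 to 48 in chronic injury and 0 to 61 between the injuries, the highest each time without acute 1. The replicate numbers do not pair the libraries (correlations of deviations 0.333, -0.225 and -0.277). With the order of the chronic libraries reversed, as in the depth split, the negative values change sign. Per the study's methods the samples were handled and sequenced in batches, and the batch of each library is not in the labels. With the replicate number as a block 0 genes passed in acute and 0 in chronic injury. With the depth split as a block, which crosses the numbers of the chronic libraries and was added after seeing the data, 12, 3 and 2 genes passed. Against the Pi16/Mfap5 fibroblasts 2 genes differed in acute and 2 in chronic change, against 4 in acute with RLE factors, 16 and 14 with no filter, 4 in chronic without doublets, and 0 to 92 and 2 to 67 without 1 library, the highest without healthy 2. Against the Car3/Cxcl14/Rbp4 cells 6 and 2 differed, against 30 and 8 with no filter and 7 to 49 and 1 to 22 without 1 library. With a pseudocount of 1 CPM, 7 genes in place of 4 were 2-fold lower than in Inmt/Sct/Ass1 fibroblasts. The differences in share kept their direction in every alternative of the pooled comparison, from 1.68 to 34.3 points in acute and 4.46 to 48.6 points in chronic injury over the alternatives and denominators run, and no p could fall below 0.333. The causes of these shifts were not tested. The folds of genes with few UMIs in healthy cells were also computed without 1 library, a choice made after seeing the data. With 24 HSB fibroblasts in chronic 2 and 39 in healthy 1, low genes rest on few UMIs.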
